A study of Homo sapiens with 2 samples.

Results

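The members described here are 10 genes of the circadian clock and its output branch, chosen by name and by known role out of the 60623 gene entries that were counted. They are the period genes PER1, PER2 and PER3, the cryptochromes CRY1 and CRY2, the activator CLOCK, the PAR-bZIP factors DBP, TEF and HLF, and NFIL3, the repressor that shares binding sites with the PAR-bZIP factors. All 10 were found by symbol, and all 10 passed the minimum of 10 counts over both libraries that 20431 entries passed.

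RNA sequencing was performed in HepG2, a human hepatocellular carcinoma cell line recorded as wild type (WT), in 2 groups with 1 library each. Cells of both groups were loaded for 24 h with 1 mM FFA, a mixture of oleic and palmitic acid carried on bovine serum albumin, in medium with fetal bovine serum and antibiotics. The FFA + 9-cis-RA group also received 10 μM 9-cis-RA, a retinoid that activates RXR and RAR receptors, for 24 h, whereas the FFA group received no retinoid, and the solvent DMSO was matched between them. The comparison asks how the RNA of FFA-loaded cells differed when 9-cis-RA was added, and neither group was free of FFA.

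In the core loop of the clock, CLOCK and BMAL1 bind E-boxes and activate the PER and CRY genes, and the PER and CRY proteins return to the nucleus and repress CLOCK-BMAL1. DBP, TEF and HLF, named for their proline and acidic amino acid rich domain, activate genes through D-boxes, and NFIL3 represses through the same sites, so that the clock drives rhythmic genes of liver metabolism and detoxification. The loop runs with a daily rhythm, and each group has 1 library, with a recorded time of 24 h. The paper's methods describe the retinoid as given after FFA loading, whereas its figures describe co-treatment. The clock time at harvest is not given for either library, so whether both were harvested at the same time is not known. A difference in the phase of a rhythm and a difference in mean level therefore cannot be told apart here, and neither can a smaller share of cells and less RNA per cell.

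Promoter sequence of all 10 members was available from RefSeq on GRCh38.p14, in 16 of 35116 windows that run from 250 bases before to 50 bases after an annotated start. They were searched on both strands for the E-box CACGTG, its variant CACGTT, the D-boxes TTATGTAA and TTACGTAA, the related letters TTATGCAA and TTACGCAA, the cAMP response element TGACGTCA and the nuclear receptor half-site AGGTCA. None of these motifs overlapped another within a member's window. The motif list was chosen after the members' promoters had been read, and a match describes the letters only. The following stretches show the clock motifs in the loop members, 5′ to 3′ on the strand of the gene with the motif in capitals.
PER1, E-box, chr17:8152535-8152614, minus strand: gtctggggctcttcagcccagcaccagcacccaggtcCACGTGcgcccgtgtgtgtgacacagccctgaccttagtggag
PER2, E-box variant, chr2:238288765-238288844, minus strand: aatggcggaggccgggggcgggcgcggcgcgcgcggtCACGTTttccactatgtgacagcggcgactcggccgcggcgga
PER2, D-box, chr2:238288595-238288624, minus strand: cccgctgcggcTTACGTAAccgccgccggc
PER3, D-box, chr1:7784078-7784157, plus strand: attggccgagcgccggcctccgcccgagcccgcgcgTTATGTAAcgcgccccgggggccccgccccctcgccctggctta
CRY1, E-box variant read on the opposite strand, chr12:107093621-107093650, minus strand: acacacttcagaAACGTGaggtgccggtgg

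The E-box of PER1 began 173 bases before the start, and CACGTG occurred in 7.26% of all windows. PER3 had no E-box or variant in its windows but had a D-box beginning 177 bases before the start. PER2 was the member with both an E-box variant and a D-box, the E-box variant 197 and the D-box 3 bases before the start. CACGTT occurred in 5.34% of all windows, TTATGTAA in 0.886% and TTACGTAA in 0.125%. CLOCK and CRY2 also held the E-box variant, 187 and 188 bases before a start.

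The output genes are shown for the same motifs, because they both use D-boxes and are themselves clock-controlled.
TEF, E-box, upstream start, chr22:41367223-41367302, plus strand: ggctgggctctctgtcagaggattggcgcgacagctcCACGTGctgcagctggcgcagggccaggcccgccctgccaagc
TEF, E-box, downstream start, chr22:41381712-41381791, plus strand: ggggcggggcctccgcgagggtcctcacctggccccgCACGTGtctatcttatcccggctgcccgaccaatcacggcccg
HLF, cAMP response element, chr17:55264942-55264971, plus strand: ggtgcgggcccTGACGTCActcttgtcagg
NFIL3, D-box-like, chr9:91424643-91424672, minus strand: tcccagtcgtgTTACGCAAcaactttgcag

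Both TEF windows held an E-box, 195 and 193 bases before their starts. The cAMP response element of HLF began 7 bases before the start and occurred in 1.85% of all windows, and the letters in NFIL3, 35 bases before the start, occurred in 0.162%. PER1 also held TTATGCAA 30 bases before the start, which occurred in 0.846% of windows. The half-site AGGTCA, which many but not all nuclear receptors bind in pairs, was present in windows of PER1, CRY2 and NFIL3 and in 13.8% of all windows. None of the 8 motifs was present in the DBP window.

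The FFA library held 60821539 counts and the FFA + 9-cis-RA library 57669670, and both are recorded in the same batch. CYP26A1, a retinoic acid hydroxylase gene induced by retinoids, had 4 counts in FFA and 709 in FFA + 9-cis-RA, in the direction of the label. All 9 hepatocyte and HepG2 markers were detected, at 278 counts or more in each library, with summed levels of 19670 and 17020 CPM. In FFA and FFA + 9-cis-RA, the summed levels were 97.4 and 58.5 for 5 leukocyte and macrophage markers, 4.14 and 2.72 for 4 endothelial markers and 20.4 and 14.0 for 6 stellate and fibroblast markers, with PTPRC, KDR and DCN at 0 in both. LYZ, at 5883 and 3332 counts, supplied nearly all of the leukocyte sum, and ACTA2, at 1186 and 773 counts, most of the stellate sum. Whether these levels bear on the members was not tested.

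Counts were divided by size factors, and log2 fold changes are FFA + 9-cis-RA against FFA after a pseudocount of 1. Since each group consists of 1 library, the spread between replicates is not known and neither p-values nor SDs are given. The intervals are exact 95% Clopper-Pearson intervals of the counts, which cover counting error only and compare these 2 libraries, not the conditions. Levels between genes are normalized counts per kb of annotated exons.

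The plot of levels sets the members side by side. In FFA, the highest levels were those of NFIL3 at 1922 and HLF at 1697 normalized counts per kb of all annotated exons. The other members were far below: CRY1 at 278, PER2 at 260, TEF at 198, CRY2 at 196, CLOCK at 188, PER1 at 145, PER3 at 32.0 and DBP at 29.6. The intervals overlapped between CRY1 and PER2, among TEF, CRY2 and CLOCK, and between PER3 and DBP, so these neighbours were not ordered beyond counting error. In FFA + 9-cis-RA, HLF stood at 1902 and NFIL3 at 1683. The order of these genes in FFA rests on the length used, since with principal transcript lengths HLF was above NFIL3 in both libraries, at 2073 against 1894 in FFA and 2323 against 1659 in FFA + 9-cis-RA. The order of the others ran from CRY1 at 357 and PER2 at 280 to CRY2 at 225, PER1 at 219 and CLOCK at 213, whose intervals overlapped. TEF at 178 stood below CLOCK, and DBP at 41.9 stood above PER3 at 22.8.

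**Figure D1:**
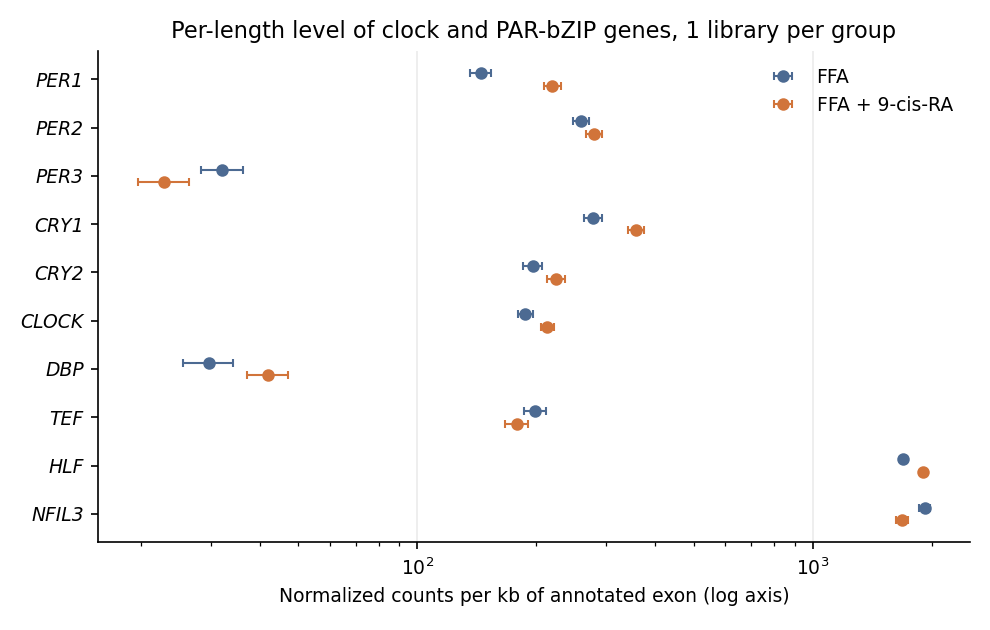
Level of each member in normalized counts per kb of exon (log axis) in the FFA and FFA + 9-cis-RA libraries, with exact 95% counting intervals as bars and 1 library per group. NFIL3 and HLF lie between 1683 and 1922 in both libraries, whereas PER3 and DBP lie between 22.8 and 41.9 by the length of all annotated exons.

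Among the 10 members, 7 were higher and 3 were lower in FFA + 9-cis-RA with an interval that excluded 0. The median log2 fold change was 0.17, against -0.020 over all genes compared. Of all genes compared, the interval lay above 0 for 22.5% and below 0 for 25.7%, or 28.6% and 20.6% when scaled by total counts. Every member had at least 100 counts, and among the 14411 genes with as many counts the shares were 29.1% above and 32.2% below, with a median of -0.0096. The share of members below 0 was thus near the background and the share above 0 was over it, although intervals narrow with counts and no test was made. No member passed a log2 fold change of 1 in either direction, where 3.37% of the genes compared lay above 1 and 4.9% below -1. Among the 14411 genes with at least 100 counts, 79 lay above 1 and 254 below -1. Under other scalings or after removal of trends, the intervals of PER2 and TEF took in 0, whereas the other 8 kept theirs clear of 0.

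**Figure D2:**
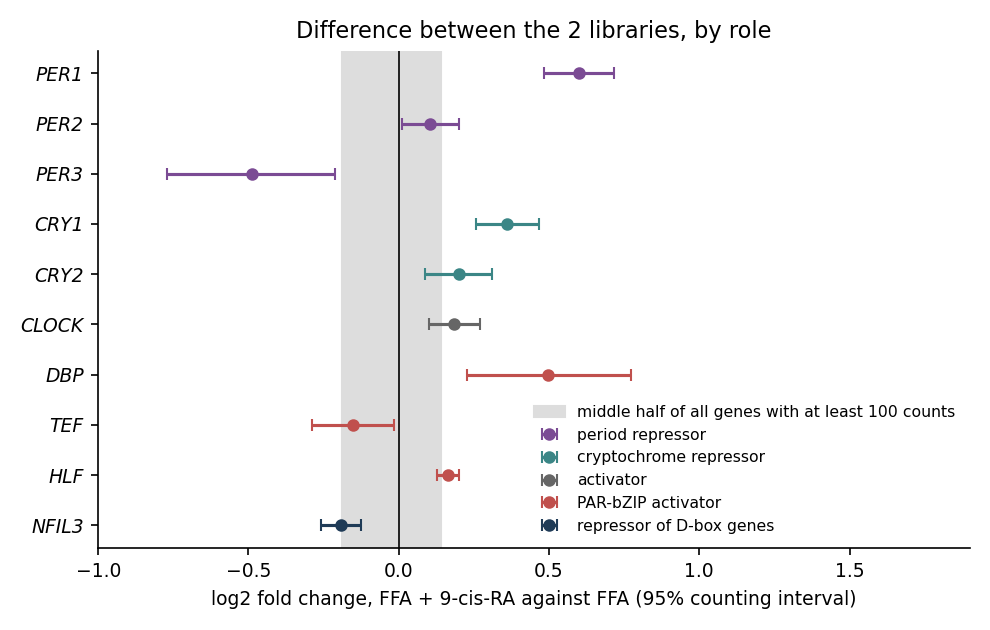
Log2 fold change of each member, FFA + 9-cis-RA against FFA, with exact 95% counting intervals as bars and 1 library per group, and a band from -0.19 to 0.14 for the quartiles of all genes with at least 100 counts. PER1 at 0.60 and DBP at 0.50 are the highest, and PER3 at -0.49 is the lowest.

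The 3 period genes, which encode the scaffold of the repressor complex, differed in direction. PER1 (ENSG00000179094; chr17, 8140472 to 8156506, minus strand), the period gene that also responds acutely to hormones and cAMP, had 1024 counts in FFA and 1522 in FFA + 9-cis-RA. PER1 was the member with the largest difference, 51.5% higher with 9-cis-RA, with a log2 fold change of 0.60 (interval 0.48 to 0.72). Of genes with at least 100 counts, 8.11% had a larger absolute difference. Other genes on the same strand covered 1.54% of the exonic bases of PER1, and 0% for each of the other 9 members.

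PER2 (ENSG00000132326; chr2, 238244044 to 238290102, minus strand), the period gene most closely tied to the pace of the loop, had 1803 and 1903 counts. The libraries were close for this gene, with a log2 fold change of 0.11 (interval 0.012 to 0.20), and 65.4% of genes with at least 100 counts had a larger absolute difference. PER3 (ENSG00000049246; chr1, 7784320 to 7845177, plus strand), which is thought to be less essential to the core loop, had 262 and 183 counts. It was lower in FFA + 9-cis-RA, with a log2 fold change of -0.49 (interval -0.77 to -0.21) that was exceeded in size by 11.9% of genes with at least 100 counts.

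The difference between 2 genes within a library does not depend on how the libraries were scaled, but it can move when a trend on gene length or mean expression is removed. PER1 exceeded PER3 3.91-fold in counts in FFA and 8.32-fold in FFA + 9-cis-RA, and their log2 fold changes differed by 1.09 (interval 0.79 to 1.39). PER1 and PER2 differed by 0.49 (interval 0.34 to 0.64), and PER2 and PER3 by 0.60 (interval 0.30 to 0.89). The period RNA thus had an unequal change among its members: per kb of exon, PER1 made up 33.2% of the family in FFA and 42.1% in FFA + 9-cis-RA. Over the same libraries PER2 went from 59.5% to 53.6%, and PER3 from 7.34% to 4.37%, of a family sum of 437 and 522 normalized counts per kb.

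The cryptochromes, which bind CLOCK-BMAL1 directly and carry most of its repression, were both higher in FFA + 9-cis-RA. CRY1 (ENSG00000008405; chr12, 106991364 to 107093549, minus strand), the longer acting repressor, had 1342 counts in FFA and 1691 in FFA + 9-cis-RA. Its log2 fold change was 0.36 (interval 0.26 to 0.47), which 19.8% of genes with at least 100 counts exceeded in size. CRY2 (ENSG00000121671; chr11, 45847118 to 45883248, plus strand) had 1225 and 1380 counts and a log2 fold change of 0.20 (interval 0.087 to 0.31).

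CRY1 and CRY2 differed from each other by 0.16 (interval 0.0079 to 0.32), barely clear of 0. CRY1 made up 58.7% of cryptochrome RNA per kb in FFA and 61.4% in FFA + 9-cis-RA, and the family sum was 474 and 582 normalized counts per kb. CLOCK (ENSG00000134852; chr4, 55427903 to 55546909, minus strand), the histone acetyltransferase and activator on which these repressors act, had 2185 and 2437 counts. Its log2 fold change was 0.19 (interval 0.10 to 0.27), and 45.2% of genes with at least 100 counts differed more in size.

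The PAR-bZIP genes also differed in direction. DBP (ENSG00000105516; chr19, 48630030 to 48637379, minus strand), a direct target of CLOCK-BMAL1 with strong rhythms in liver, had 194 counts in FFA and 269 in FFA + 9-cis-RA. It was higher with 9-cis-RA, with a log2 fold change of 0.50 (interval 0.23 to 0.77) that 11.5% of genes with at least 100 counts exceeded in size. Its level depended on the length used: all annotated exons sum to 6485 bases and the principal transcript to 2229 bases, which gave 29.6 and 41.9 against 86.2 and 122 normalized counts per kb.

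TEF (ENSG00000167074; chr22, 41367333 to 41399326, plus strand), a factor of broader and flatter expression, had 941 and 831 counts. It was slightly lower in FFA + 9-cis-RA, with a log2 fold change of -0.15 (interval -0.29 to -0.016). HLF (ENSG00000108924; chr17, 55264960 to 55325187, plus strand), the liver-enriched member also known from leukemia fusions, had 11608 and 12765 counts. HLF was higher by a small amount, with a log2 fold change of 0.16 (interval 0.13 to 0.20). This interval was the narrowest among the members, at the highest counts, while 49.6% of genes with at least 100 counts differed more in size.

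HLF dominated PAR-bZIP RNA in both libraries, with 88.2% of the per kb sum in FFA and 89.6% in FFA + 9-cis-RA. TEF made up 10.3% and 8.41%, and DBP 1.54% and 1.97%, of family sums of 1925 and 2122 normalized counts per kb. DBP and TEF differed in log2 fold change by 0.65 (interval 0.35 to 0.96), DBP and HLF by 0.33 (interval 0.060 to 0.61), and HLF and TEF by 0.32 (interval 0.18 to 0.46).

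NFIL3 (ENSG00000165030; chr9, 91409045 to 91423832, minus strand), also called E4BP4, had 3987 counts in FFA and 3426 in FFA + 9-cis-RA. This repressor of D-box genes was lower with 9-cis-RA, with a log2 fold change of -0.19 (interval -0.26 to -0.12), and 43.9% of genes with at least 100 counts differed more in size. Against NFIL3, the log2 fold change was higher by 0.69 for DBP (interval 0.41 to 0.97) and by 0.36 for HLF (interval 0.28 to 0.43). For TEF the difference was 0.039, and its interval from -0.11 to 0.19 held 0. These differences depend on the trend on gene length. With that trend removed, the log2 fold changes were 0.48 for DBP, 0.14 for HLF, -0.14 for TEF and -0.10 for NFIL3. HLF and NFIL3 then lay closer together, and TEF lay below NFIL3.

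The summed level of the 3 activators per kb was set against that of their repressor. This ratio was 1.00 (bounds 0.947 to 1.06) in FFA and 1.26 (bounds 1.19 to 1.34) in FFA + 9-cis-RA, with bounds taken from the exact intervals of the 4 counts. The ratio of RNA thus was higher in the FFA + 9-cis-RA library, while its height depends on the gene lengths used: 1.25 and 1.59 with principal transcripts, and 3.20 and 4.05 from counts alone. It was not recalculated with the trend on gene length removed, where the log2 fold changes of HLF and NFIL3 were closer, at 0.14 and -0.10. HLF supplied most of the numerator in both libraries.

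**Figure D3:**
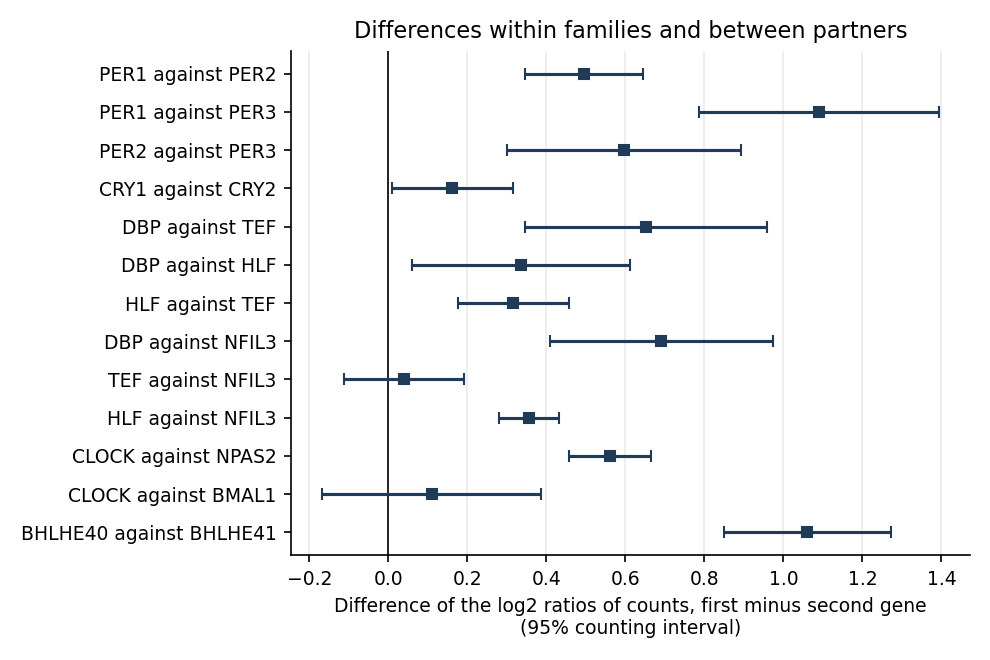
Difference in log2 fold change between 2 genes of the same family or of opposed function, for 13 pairs, with exact 95% counting intervals as bars and 1 library per group. PER1 against PER3, at 1.09, is the widest, and the intervals of TEF against NFIL3 and CLOCK against BMAL1 hold 0.

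The genes that act with the members were counted in lists written for this comparison, and the plot of the lists shows every gene compared. Of 62 listed genes, 56 had at least 10 counts, of which 22 had an interval above 0 and 17 below 0, with a median log2 fold change of 0.049. Of all genes compared 22.5% lay above and 25.7% below 0, and of those with at least 100 counts, 29.1% and 32.2%.

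In the positive arm, which pairs with CLOCK, 1 of 3 genes was higher, 1 was lower and the median was 0.075. BMAL1, the usual partner, had 236 and 244 counts and a log2 fold change of 0.075 (interval -0.19 to 0.34). BMAL2, its paralog, was slightly higher, at 2218 and 2357 counts with a log2 fold change of 0.12. NPAS2, which can replace CLOCK, was lower, at 4857 and 3672 counts with a log2 fold change of -0.38 (interval -0.44 to -0.31).

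CLOCK and NPAS2 therefore differed by 0.56 (interval 0.46 to 0.67), whereas CLOCK and BMAL1 differed by 0.11 with an interval from -0.17 to 0.39 that held 0. In the loop that controls BMAL1 transcription, the repressors NR1D1 at 1190 and 1275 counts and NR1D2 at 2223 and 2332 counts were slightly higher, with log2 fold changes of 0.13 and 0.097. For RORA, an activator in that loop with 817 and 737 counts, the interval held 0 (-0.27 to 0.024, around -0.12). RORB had 0 counts in both libraries, for which the limit was set at 3 counts in each. The list had 2 of 4 genes above 0, 0 below 0 and a median of -0.012, or 0.037 with total-count scaling.

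The other repressors of E-box genes also differed in direction. BHLHE40 (DEC1) had 3397 and 4681 counts and was higher, with a log2 fold change of 0.49 (interval 0.43 to 0.55). BHLHE41 (DEC2), its paralog, had 513 and 339 counts and was lower, with a log2 fold change of -0.57 (interval -0.77 to -0.37). Between these paralogs the difference was 1.06 (interval 0.85 to 1.27), which is close to the difference between PER1 and PER3.

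TIMELESS, which in mammals acts mainly at replication forks, was lower at 5996 and 5144 counts with a log2 fold change of -0.19. CIART, a repressor of CLOCK-BMAL1, had 18 and 15 counts and an interval that held 0, from -1.33 to 0.84. In this list, with TIMELESS counted, 1 of 4 genes was above 0 and 2 were below 0, with a median of -0.21.

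The kinases that phosphorylate PER and CRY proteins and set their stability were mostly higher, with 7 of 10 above 0, 1 below 0 and a median of 0.13. CSNK1A1, encoding casein kinase 1 alpha, had a log2 fold change of 0.37, and GSK3B, encoding glycogen synthase kinase 3 beta, had 0.30. The lowest were CSNK2B, the regulatory subunit of casein kinase 2, at -0.15 and PRKAA1, a catalytic subunit of AMPK, at 0.016 with an interval that held 0. Other genes on the same strand covered 49.3% of the exonic bases of CSNK1A1 and a smaller part of those of CSNK2B, which makes their counts less certain.

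Of the ubiquitin ligases and deubiquitinases that control PER and CRY turnover, 3 of 6 were above 0 and 2 below 0, with a median of 0.12. BTRC, the ligase subunit that targets PER proteins, was higher by a log2 fold change of 0.28. The deubiquitinases USP2 and USP7 were lower, with log2 fold changes of -0.32 and -0.13.

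Other output genes of CLOCK-BMAL1 were divided, with 5 of 12 above 0, 4 below 0 and a median of -0.0095, or 0.040 with total-count scaling, and this list shares NR1D1, NR1D2, CIART, BHLHE40, BHLHE41 and USP2 with the lists above. KLF10, a zinc finger repressor linked to hepatic glucose metabolism, had 4282 and 6479 counts and the highest log2 fold change of the list, 0.62, ahead of BHLHE40. TSPAN4, a tetraspanin gene, had 1198 and 771 counts and the lowest, -0.61, followed by BHLHE41.

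The reported hepatic targets of PAR-bZIP factors did not follow 1 direction either, with 2 of 9 above 0, 4 below 0 and a median of -0.00067, or 0.048 with total-count scaling. POR, the electron donor of microsomal cytochromes P450, had 21786 and 30308 counts and a log2 fold change of 0.50 (interval 0.48 to 0.53). NR1I3, the xenobiotic receptor CAR, had only 13 and 18 counts, and its interval from -0.61 to 1.65 held 0.

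The lowest were CYP7A1, the rate-limiting enzyme of bile acid synthesis, with 48 counts in FFA and 1 in FFA + 9-cis-RA, and CYP3A4, a drug-metabolizing cytochrome P450, with 19 and 3. Their log2 fold changes were -4.59 (interval -10.9 to -3.01) and -2.30 (interval -5.03 to -0.87). Both stand on few counts, and with a minimum of 50 counts only CES2, a carboxylesterase gene, and CYP2B6, another cytochrome P450 gene, remained of the 4 genes below 0, with log2 fold changes of -0.43 and -0.997.

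**Figure D4:**
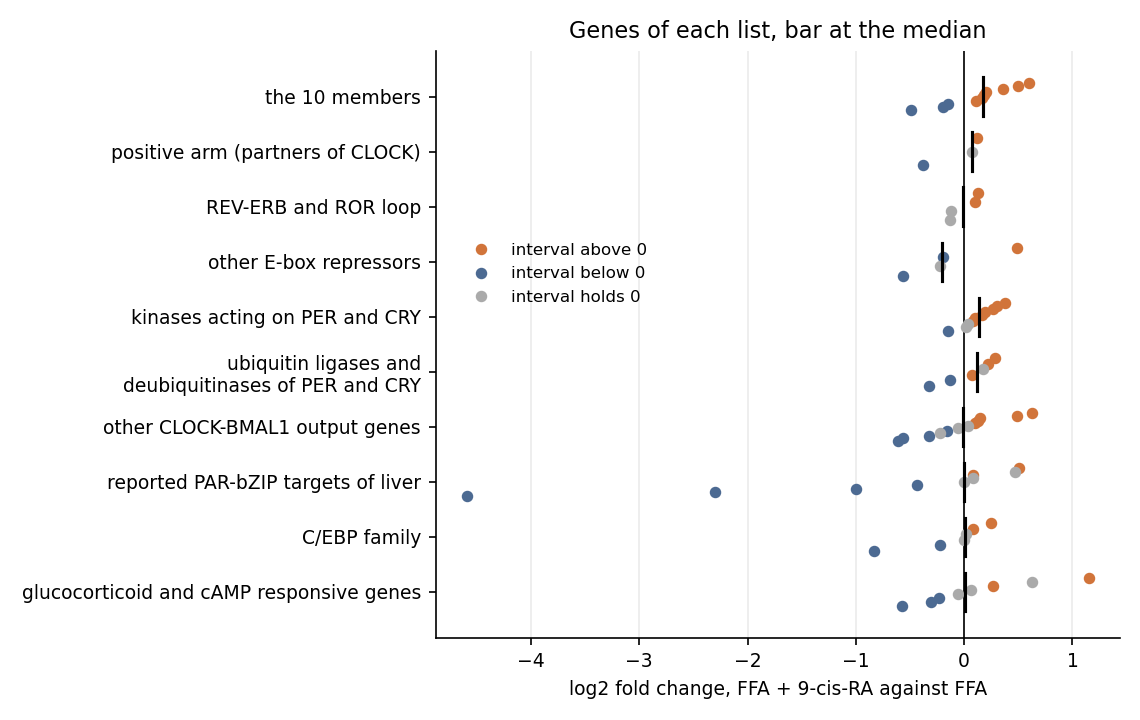
Log2 fold change, FFA + 9-cis-RA against FFA, of every compared gene in the members and 9 lists, with a bar at each list's median and colors for intervals above 0, below 0 or holding 0 (1 library per group). The members' median is 0.17, the medians of the lists run from -0.21 to 0.13, and the lowest points are CYP7A1 at -4.59 and CYP3A4 at -2.30.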

How the data were processed

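RNA sequencing of FFA-loaded HepG2 cells without and with 9-cis-RA was analyzed, with 2 libraries in all. For each, the authors deposited raw counts of fragments per gene, which per the file headers were made with featureCounts version 2.0.1 from stranded read pairs (strand setting 2) on exons, with both ends mapped. Such counting leaves out reads shared by overlapping genes. The submitters' processing notes name GRCh38 and DESeq2 without a version, and the aligner and annotation release are not given in the sources used here.

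Median-of-ratios size factors came from DESeq2 (version 1.42.0), and TMM factors from edgeR (version 4.0.16), both under R 4.3.3. Intervals were calculated in Python 3.11.15 (scipy 1.17.1, numpy 2.4.6), tables with pandas 2.3.3, trends with statsmodels 0.14.6 and plots with matplotlib 3.10.9, and the steps were tested on simulated data. Entries were compared where both libraries together held at least 10 counts, and a log2 fold change of 1 was the threshold of size. Gene symbols were available for 60295 of the 60623 entries. Gene positions, same-strand overlaps and exonic lengths came from the deposited files, and principal transcript lengths from GENCODE annotation of GRCh38. The limit behind a count of 0 was set at 3 counts, which is 0.0493 CPM in FFA and 0.0520 CPM in FFA + 9-cis-RA, and like the intervals it covers counting error only. No test for differential expression could be fitted with 1 library per group.

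The members and lists were chosen with earlier results of these data known. All 10 members are named, as are the 2 highest and 2 lowest compared genes of each list and every gene of the lists on the positive arm, the REV-ERB and ROR loop and the other E-box repressors. Of the genes this rule names, 2 are not reported here. CES2 and CYP2B6 were named after their values were seen. The other lists hold kinases acting on PER and CRY, their ubiquitin ligases and deubiquitinases, CLOCK-BMAL1 outputs, PAR-bZIP targets, the C/EBP family, and glucocorticoid and cAMP responsive genes. The alternatives tried were scaling by TMM factors or total counts, pseudocounts of 0.1 and 5, no count minimum or 50, and removal of lowess trends (span 0.3) on mean expression or gene length.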

Additional observations from a re-analysis of the deposited data

How the results depend on the processing

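None of 60 member values under 6 alternatives changed sign. Total-count scaling gave 0.21 for HLF, and removal of a trend on gene length gave -0.10 for NFIL3. These were the 2 member values that moved past their counting intervals, and the cause was not tested. The interval of TEF took in 0 with TMM factors, total-count scaling and the length trend removed, and that of PER2 with either trend removed. Over the 8 alternatives to the counts, 6 to 7 members lay above 0 and 2 to 3 below, with a median from 0.14 to 0.22. The ratio of summed PAR-bZIP level to NFIL3 was 3.20 in FFA and 4.05 in FFA + 9-cis-RA without division by length, and 1.25 and 1.59 with principal transcript lengths, an alternative chosen after seeing the data. The shares of genes past 1 and -1 were 12.7% and 8.38% with no count minimum, 0.961% and 2.27% with a minimum of 50, and 1.67% and 2.91% with a pseudocount of 5. Of 216 list values 8 moved, and list medians close to 0 took the other sign under some scalings. The count below 0 in the kinase list was 0 with total-count scaling or the length trend removed. No leave-one-out value could be had, and no paired analysis was possible because each group has 1 library. The difference between separate cultures of the same treatment was not measured, and depth says nothing about it.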

Other observations

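The genes listed as the C/EBP family, most of which encode bZIP factors that bind sites related to D-boxes, were divided in the same libraries. The list was drawn by gene name and includes CEBPZ, which is not a bZIP factor. Of 6 genes compared among 7 listed, 2 had an interval above 0 and 2 below 0, with a median log2 fold change of 0.0066. CEBPB, an acute phase regulator, was higher at 4249 counts in FFA and 4937 in FFA + 9-cis-RA, with a log2 fold change of 0.24 (interval 0.19 to 0.30). CEBPA, a main factor of the differentiated hepatocyte, had 19131 and 19873 counts and a log2 fold change of 0.083. CEBPD, also an acute phase regulator, was lower at 918 and 505 counts with -0.83 (interval -0.99 to -0.68), and DDIT3, the stress factor CHOP, was lower at 3300 and 2767 counts with -0.23.

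Genes that respond to glucocorticoids or cAMP, signals that also act on PER1, were likewise divided. Of 8 genes compared among 10 listed, 2 had an interval above 0 and 3 below 0, with a median of 0.0052. FOS, an immediate early gene, had 573 counts in FFA and 1248 in FFA + 9-cis-RA, with a log2 fold change of 1.15 (interval 1.01 to 1.30). NR4A2, an orphan nuclear receptor, had 30 and 46 counts and an interval from -0.050 to 1.36 that held 0. SGK1, a kinase induced by glucocorticoids, was lower at 955 and 629 counts with -0.57 (interval -0.72 to -0.43), and NR4A1 had 254 and 201 counts with -0.31 (interval -0.58 to -0.037). With total-count scaling or the trend on mean expression removed, 2 genes of this list lay below 0, and the interval of NR4A1 took in 0. PER1, at 0.60, lay between FOS and SGK1, the highest and lowest compared genes of this list, and so did every other member. Whether PER1 followed these signals was not tested.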
